A study of Rattus norvegicus with 28 samples.

Results

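Gria2 and Grik3 encode subunits of glutamate receptors, and this account follows every row of the deposited table that the platform annotation gives to either gene. There were 4 such rows among 228, namely rows 81 and 83 for Gria2 and rows 88 and 89 for Grik3, out of 156 named genes. The genes were chosen by their low ratios of injected to uninjected animals on these same arrays. Those ratios are therefore given as a description, without a test, and only differences between groups of injected animals were tested.

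The study asked how a noxious insult to the newborn paw changes gene expression in adult pain pathways. Each of 28 custom oligonucleotide arrays, in 6 groups, was hybridised with RNA of injected male rats and RNA of rats that received no injection, both from the same region. There were 5 arrays of PAG after carrageenan and 5 of PAG after saline, and 5 arrays of RVM after carrageenan and 4 of RVM after saline. A further 5 arrays held the left and 4 the right lumbar dorsal horn (LDH), all of them from carrageenan-injected animals. The labels leave PAG and RVM unexpanded; in pain research they commonly stand for the periaqueductal grey and the rostral ventromedial medulla, both stations of the descending control of pain, while the lumbar dorsal horn receives sensory fibres from the hindpaw. Pups were injected into the left hindpaw at postnatal day 3 with 0.25% carrageenan, a seaweed polysaccharide that inflames tissue, in 0.9% saline at 1 µl/g. The saline groups received saline at the same site and day, the uninjected controls of every array received nothing, and injected animals were kept until day 59. No strain is named. Whether the arrays of 1 group stand for different rats is not stated, so SDs and p-values reflect array-to-array spread that may be technical.

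Fast excitation in the brain and spinal cord runs mostly through AMPA receptors, tetramers built from the products of Gria1 to Gria4. Gria2 encodes GluA2, the subunit that, once its transcript is edited, makes the channel nearly impermeable to calcium. Kainate receptors are related tetramers built from the products of Grik1 to Grik5, and they act both at the postsynaptic membrane and on presynaptic terminals, where they modulate transmitter release. Grik3 encodes GluK3, a subunit with low affinity for glutamate.

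All values are log2 ratios of injected over uninjected as the authors deposited them, so a negative value means less signal from the injected animals. Base 2 was inferred from the range of the values. The direction is likely rather than stated: injected RNA is listed as channel 1 for all 28 arrays. Across pairs of arrays the correlation over shared rows was positive at the median (0.266) but reached -0.51, with 7 of 348 pairs below -0.3. The same direction was nevertheless kept for every array, since the labels give 1 dye to injected and another to uninjected RNA throughout. This does not show which channel was the numerator of the deposited ratios, so an inverted array could not be recognised. Because dyes were never exchanged, an effect of dye and of injection cannot be told apart in a ratio. An exact 0 was taken as not measured, which applied to 55.9% of 6384 values. Arrays had between 7 and 195 measured rows. Both channels came from the same region, so the ratios say nothing about the identity of the tissue, and only 3 of 29 cell type markers looked for had a row. Fewer cells of a type and less RNA per cell cannot be told apart in such bulk samples.

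Grik3 row 88 had a ratio on 25 of 28 arrays and was below 0 on all 25. Over these arrays it averaged -3.32 ± 2.34 (SD, n = 25) with a median of -3.15. The arrays without a ratio were RVM carrageenan arrays 2 and 4 and right LDH array 1, which had 30, 29 and 7 measured rows. Grik3 row 89, measured on 16 arrays, was below 0 on all 16 and averaged -1.86 ± 1.93 (SD, n = 16). Of 105 rows measured on at least 12 arrays, these 2, or 1.9%, were below 0 on every array that measured them. Some rows measured on fewer arrays were so too, among them unnamed row 145 (10 arrays), Grin3a row 228 (6 arrays) and Grik5 (4 arrays). Gria2 row 83 had a ratio on 18 arrays and was below 0 on 15 of them, with a mean of -0.98 ± 1.05 (SD, n = 18). Gria2 row 81 had a ratio on only 3 arrays.

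**Figure D1:**
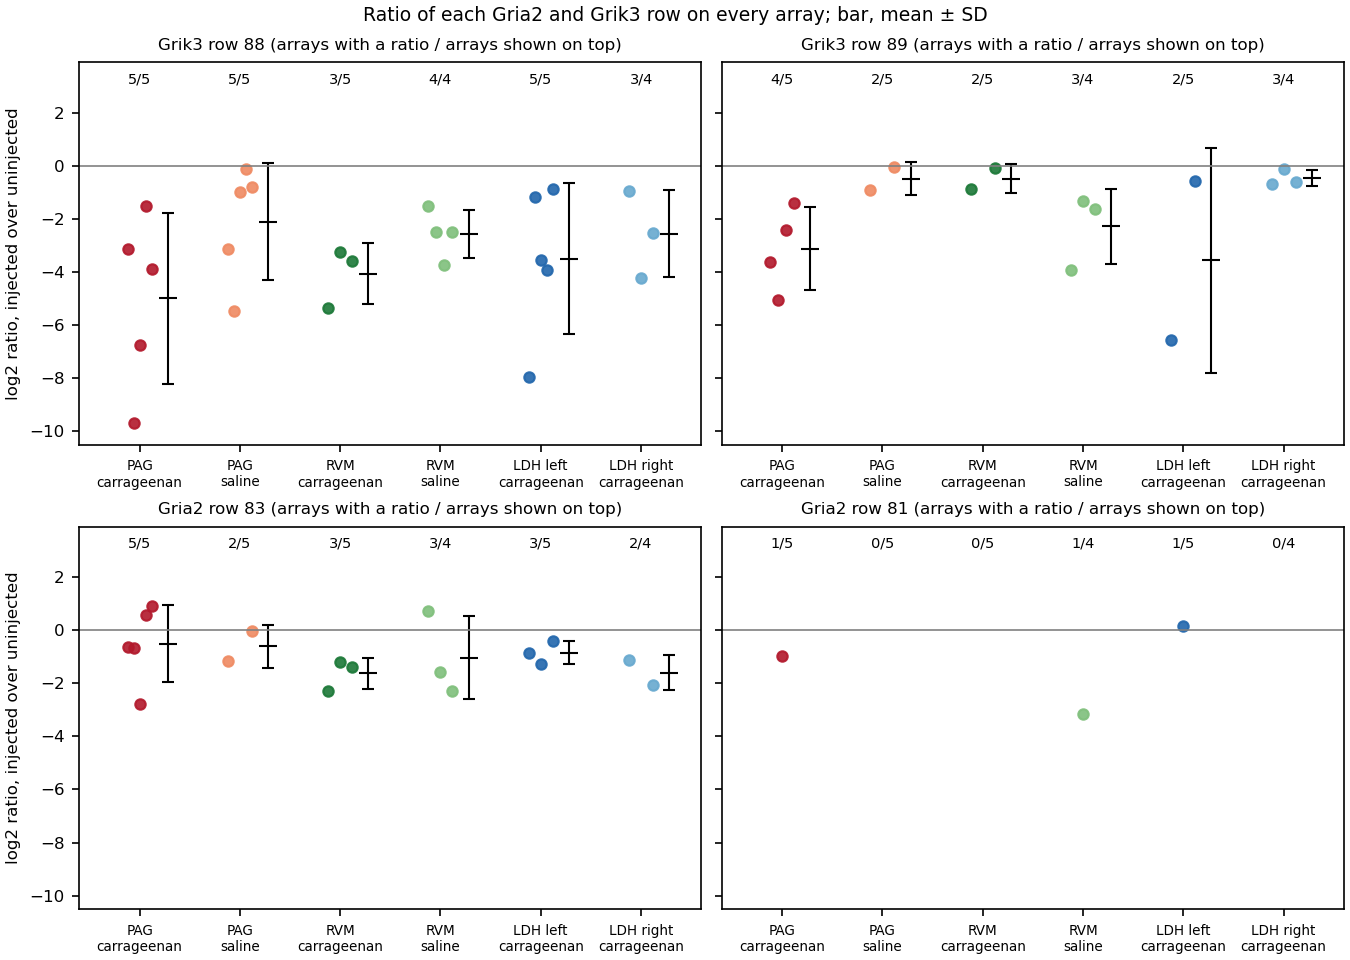
Log2 ratio of injected over uninjected animals (vertical axis) for each of the 4 rows on every array of the 6 groups (horizontal axis), with 1 point per array, bars for the mean ± SD where at least 2 arrays had a ratio, and the number of arrays with a ratio on top. Every point of both Grik3 rows lies below 0, with the lowest, -9.67, in PAG carrageenan, whereas Gria2 row 83 has 3 points above 0.

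In PAG, Grik3 row 88 had ratios of -3.12, -9.67, -6.73, -1.53 and -3.90 on carrageenan arrays 1 to 5. On saline arrays 1 to 5 it had ratios of -3.15, -5.48, -1, -0.11 and -0.80. Both groups lay below 0 throughout and overlapped, since saline arrays 1 and 2 fell within the range of the carrageenan arrays. The carrageenan mean was -4.99 ± 3.23 and the saline mean -2.11 ± 2.20 (SD, n = 5 each), and the medians were -3.90 and -1. With base and direction as inferred, the means correspond to 31.8-fold and 4.31-fold lower signal than in uninjected controls. Carrageenan array 2 gave the lowest value of row 88 on any array and saline array 4 the one nearest to 0. Leaving out 1 array at a time, the carrageenan mean lay between -5.86, without array 4, and -3.82, without array 2. Without saline array 2, the saline mean was -1.26.

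In RVM, row 88 had ratios of -5.37, -3.25 and -3.57 on carrageenan arrays 1, 3 and 5. On saline arrays 1 to 4 the ratios were -1.50, -2.51, -3.75 and -2.51. The groups overlapped through saline array 3 alone. Means were -4.06 ± 1.14 after carrageenan (SD, n = 3) and -2.57 ± 0.92 after saline (n = 4). With the unmeasured carrageenan arrays taken as ratios of 0, the carrageenan mean would be -2.44.

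In the dorsal horn, row 88 had ratios of -7.97, -1.18, -3.55, -3.93 and -0.88 on the left and -0.94, -4.22 and -2.52 on right arrays 2 to 4. Every right value lay within the range of the left ones. The means were -3.50 ± 2.85 on the left (SD, n = 5) and -2.56 ± 1.64 on the right (n = 3).

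Ordered from the lowest mean, the groups were PAG carrageenan, RVM carrageenan, left LDH, RVM saline, right LDH and PAG saline. No gap between neighbours in this order exceeded the larger of their SDs; the widest was 0.94, between left LDH and RVM saline. By region the means were -3.55 ± 3.01 in PAG (n = 10), -3.21 ± 1.22 in RVM (n = 7) and -3.15 ± 2.37 in LDH (n = 8, all SD). These region means pool different treatments, since LDH has no saline arrays. Group means at or below -1 were found for 16.8% of rows in PAG carrageenan and 2.5% in PAG saline, for 4.92% in RVM carrageenan and 11.8% in RVM saline, and for 8.7% in left and 6.45% in right LDH. Row 88 was at or below -1 in all 6 groups. It was also below 0 on every array that measured it in each group, as were 17.4% and 16.2% of rows in the carrageenan and saline groups of PAG, 9.84% and 20.5% in those of RVM, and 13% and 25.8% in left and right LDH. These are ratios of the kind that led to the choice of the gene, so the shares support nothing about it.

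The position of row 88 within each array does not depend on the scale of that array. It had the lowest ratio of all measured rows on 10 of 25 arrays, whereas no other row was lowest on more than 2. On 17 of 25 arrays it was among the lowest 5% of measured rows. Rows measured on fewer arrays could be lowest less often. By median rank from the lowest, Grin3a row 180 (9 arrays) was at 2.74% and Slc1a1 (3 arrays) at 2.98%, against 3.03% for row 88. These ranks come from the ratios that led to the choice of the gene, so they support nothing about it. Arrays on which row 88 was outside the lowest 5% included PAG saline array 4, where it ranked 37 of 95 from the lowest. Others were PAG carrageenan array 4, at 25 of 169, and left LDH array 2, at 21 of 168. Across 25 arrays its ratio had a Pearson r of -0.19 with the number of measured rows and of -0.27 with the SD of the array, given as a description. For row 89, measured on 16 arrays, r with the number of measured rows was -0.40 and rho -0.57.

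**Figure D2:**
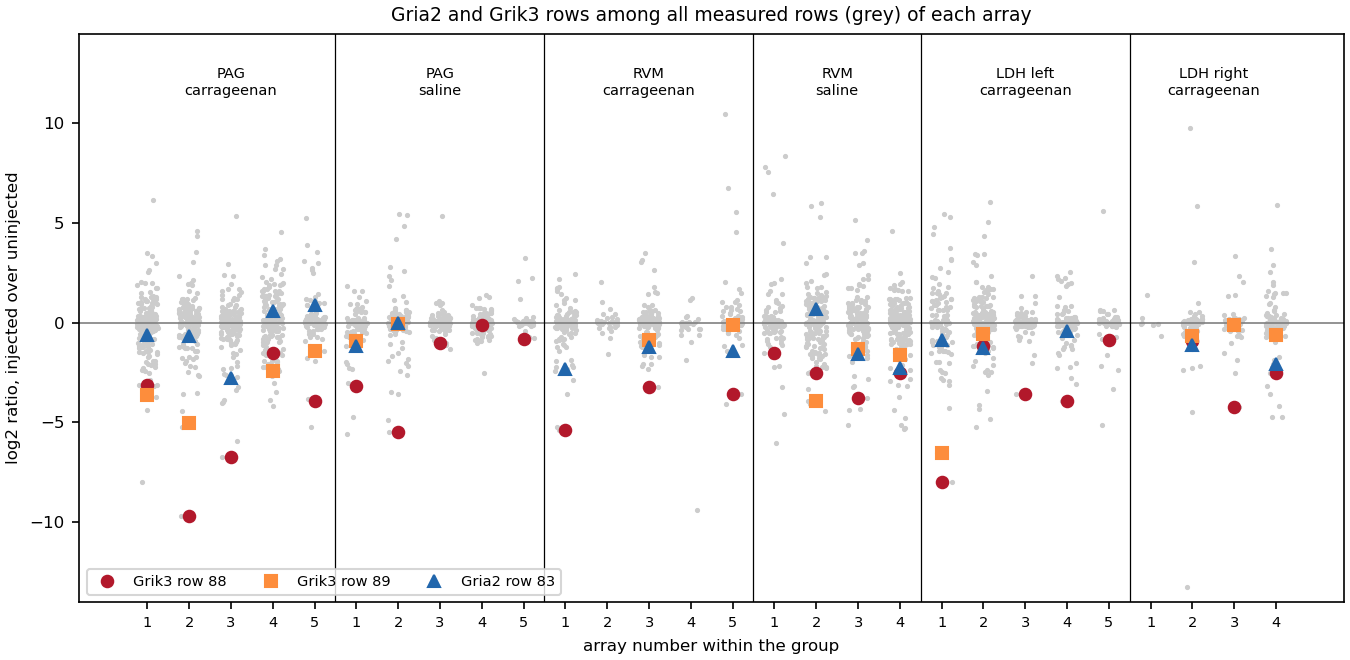
Log2 ratio (vertical axis) of every measured row on each of the 28 arrays (horizontal axis, numbered within the 6 groups), with all rows in grey and Grik3 rows 88 and 89 and Gria2 row 83 in colour. Grik3 row 88 is the lowest point of 10 arrays, among them PAG carrageenan arrays 2 and 3 and left LDH arrays 1, 3 and 4.

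Grik3 row 89, the other row of the gene, was measured less often. In PAG it had ratios of -3.62, -5.04, -2.43 and -1.40 on carrageenan arrays 1, 2, 4 and 5, and of -0.92 and -0.04 on saline arrays 1 and 2. In RVM it had ratios of -0.86 and -0.09 on carrageenan arrays 3 and 5, and of -3.91, -1.32 and -1.62 on saline arrays 2 to 4. So the carrageenan values were all below the saline ones in PAG and all above them in RVM. Among rows measured on at least 2 arrays of each group, 3% had carrageenan wholly below saline in PAG, and 3.06% had carrageenan wholly above saline in RVM, where 10.2% had it wholly below. The groups with the lower values of row 89, PAG carrageenan and RVM saline, were also those whose arrays measured the most rows, 149 and 145.5 on average, against 80.8 in PAG saline and 69.8 in RVM carrageenan. The part of this in the pattern was not tested. In LDH the ratios were -6.55 and -0.57 on left arrays 1 and 2, against -0.68, -0.12 and -0.62 on right arrays 2 to 4.

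Row 89 had too few arrays for the main tests, which needed at least 3 measured arrays in each group. With at least 2, carrageenan minus saline was -2.64 in PAG (95% interval -5.28 to 0.01; limma adjusted p = 0.366). In RVM it was 1.81 (95% interval -0.72 to 4.33; limma adjusted p = 0.656). The difference between these effects was -4.44 (95% interval -7.89 to -0.99), with an unadjusted limma p of 0.0175 and an adjusted p of 0.259 over 74 rows. It did not pass, nor did it with unmeasured values taken as 0 (-3.82; limma adjusted p = 0.0673). PAG minus RVM after carrageenan was -2.64 (95% interval -5.02 to -0.27), with an unadjusted limma p of 0.0331 and an adjusted p of 0.472. Left minus right LDH was -3.09 (95% interval -8.55 to 2.37; limma adjusted p = 0.782).

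The Grik3 rows were set against each other on the 16 arrays that measured both. Row 88 was the lower on 13 arrays and row 89 on 3, namely PAG carrageenan arrays 1 and 4 and RVM saline array 2. Row 88 minus row 89 had a median of -2.07 and ran from -5.44 to 1.40, so the rows of 1 gene shared a sign and differed widely in size. Pearson's r between them was 0.58 and Spearman's rho 0.07. Without the 2 arrays farthest from the median of row 88, PAG carrageenan array 2 and left LDH array 1, r was -0.26, so the relation rested on those arrays. Within PAG, the only region with 6 such arrays, r was 0.46 and rho -0.03. In this table, 13 other pairs of rows of the same gene shared at least 12 arrays, and their r had a median of 0.14 and ran from -0.49 to 0.47.

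**Figure D3:**
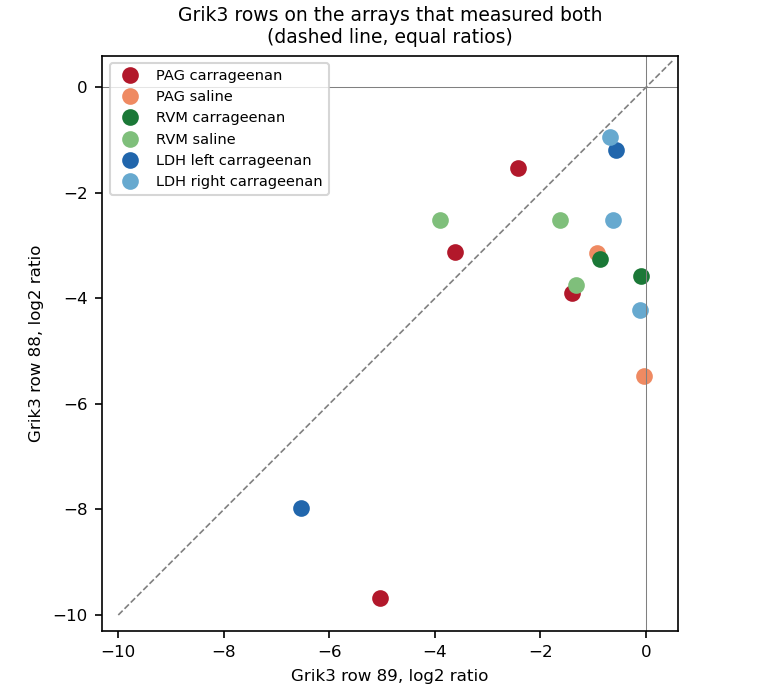
Log2 ratio of Grik3 row 88 (vertical axis) against row 89 (horizontal axis) on the 16 arrays that measured both, coloured by group, with a dashed line of equal ratios. Of the 16 points, 13 lie below the line, and the pair at the lower left are PAG carrageenan array 2 and left LDH array 1.

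Gria2 row 83 was closer to 0 than Grik3 row 88 in the mean of every group, but its median over all arrays, -1.15, was near that of Grik3 row 89, -1.12. In PAG, row 83 had ratios of -0.64, -0.68, -2.78, 0.57 and 0.91 on carrageenan arrays 1 to 5, against -1.17 and -0.03 on saline arrays 1 and 2. Carrageenan arrays lay on both sides of 0, and the mean of -0.52 ± 1.45 (SD, n = 5) became 0.04 without array 3. It was -0.80 without array 4 and -0.88 without array 5. The saline mean was -0.60 ± 0.81 (SD, n = 2), slightly below the carrageenan mean. In RVM, the row had ratios of -2.30, -1.20 and -1.40 on carrageenan arrays 1, 3 and 5, against 0.70, -1.56 and -2.28 on saline arrays 2 to 4. The means there were -1.63 ± 0.58 after carrageenan and -1.05 ± 1.56 after saline (SD, n = 3 each). Without saline array 2 the saline mean was -1.92, and without saline array 4 it was -0.43.

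In LDH, row 83 was below 0 on every array that measured it. Ratios were -0.86, -1.29 and -0.40 on left arrays 1, 2 and 4, against -1.13 and -2.08 on right arrays 2 and 4. The left mean was -0.85 ± 0.44 (SD, n = 3) and the right mean, lower, was -1.60 ± 0.67 (n = 2). Row 81, the other Gria2 row, had ratios of -0.97 on PAG carrageenan array 4, -3.18 on RVM saline array 4 and 0.17 on left LDH array 2. With 1 array in each of 3 groups it allowed no comparison, and on those same arrays row 83 had 0.57, -2.28 and -1.29.

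Between the genes, Gria2 row 83 and Grik3 row 88 shared 18 arrays, with r of 0.11 and rho of 0.05. Gria2 row 83 and Grik3 row 89 shared 15 arrays, with r of -0.27 and rho of -0.39. Within PAG, Gria2 row 83 had r of 0.42 with row 88 (7 arrays) and 0.25 with row 89 (6 arrays). Within RVM its r with row 88 was 0.51 over 6 arrays, and -0.76 without the 2 farthest. So no steady relation in size was seen between the genes. That both had mostly negative ratios follows from how they were chosen and is no result. Row 88 was among the lowest 5% of measured rows on 17 arrays, and Gria2 row 83 on 0.

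Differences between the injected groups were then tested with limma over every row measured on at least 3 arrays of each group. Grik3 row 88 entered all 6 comparisons. Gria2 row 83 entered 1, that in RVM, since it had only 2 measured arrays in PAG saline and in right LDH. The members were picked with such differences already known, so these tests give their size and error and no independent support. In PAG, carrageenan minus saline was -2.88 for Grik3 row 88 (95% interval -6.52 to 0.76; limma adjusted p = 0.432; exact permutation p = 0.151, with 0.00794 the smallest that 5 against 5 arrays allow). It was the lowest of 78 differences, yet it did not pass, and 0 of the 78 rows (0%) had an adjusted p below 0.05, with 10 at an unadjusted p below 0.05. Leaving out 1 array at a time, the difference lay between -3.75 and -1.71, the latter without carrageenan array 2. Over the other alternatives it lay between -4.25 and -0.23, the latter with quantile normalization. It was below 0 in all of them. The PAG groups also differed in what the arrays measured. Carrageenan arrays had 149 ± 36.9 measured rows and an SD of ratios of 1.47 on average, against 80.8 ± 26.8 rows and an SD of 0.97 on saline arrays (SD, n = 5 each). The part of this in the difference was not tested.

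In RVM, carrageenan minus saline was -1.49 for Grik3 row 88 (95% interval -3.21 to 0.23; limma adjusted p = 0.465; exact permutation p = 0.171, with 0.0571 the smallest that 3 against 4 arrays allow). For Gria2 row 83 it was -0.59 (95% interval -2.76 to 1.59; limma adjusted p = 0.85; exact permutation p = 0.8, with 0.1 the smallest that 3 against 3 arrays allow). Neither passed, nor did any of 56 rows (0%), of which 4 had an unadjusted p below 0.05. With unmeasured values taken as 0, the Grik3 difference turned to 0.13, and the Gria2 difference turned to 0.06 with array weights. With quantile normalization these differences were -2.36 for Grik3 and -0.99 for Gria2, and with both rows of Grik3 averaged its difference was -0.76. Carrageenan arrays had 69.8 ± 39.8 measured rows (SD, n = 5) and saline arrays 145.5 ± 38.9 (n = 4), and what this contributed was not tested.

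In LDH, left minus right was -0.94 for Grik3 row 88 (95% interval -4.69 to 2.81; limma adjusted p = 0.854; exact permutation p = 0.75, with 0.0357 the smallest that 5 against 3 arrays allow). The labels do not say which left and right arrays share a rat, and both tests took the groups as independent. None of 29 rows (0%) passed, and 0 had an unadjusted p below 0.05 by limma. The value turned to 0.17 without left array 1. It was -1.52 without left array 2 and -1.60 without left array 5, and it was -0.18 with array weights and -1.78 with both rows of Grik3 averaged.

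Between regions, PAG minus RVM for row 88 was -0.93 after carrageenan (95% interval -4.28 to 2.42; limma adjusted p = 0.808) and 0.46 after saline (95% interval -2.62 to 3.54; limma adjusted p = 0.995). The effect of carrageenan over saline differed between PAG and RVM by -1.39 (95% interval -5.94 to 3.16; limma adjusted p = 0.762). In each of these 3 comparisons 0 of 48 rows (0%) passed by limma, and 1, 4 and 3 rows had an unadjusted p below 0.05. All 3 values changed sign with quantile normalization. After carrageenan the region difference was 0.24 without PAG carrageenan array 2, -0.50 without array 3, and lower, at -1.40 and -1.80, without arrays 1 and 4. After saline it lay between -0.04, without PAG saline array 4, and 1.30, without PAG saline array 2. The interaction lay between -2.25, without PAG carrageenan array 4, and -0.22, without PAG carrageenan array 2. Intervals of this width leave room for differences of several log2 units in either direction, so the tests do not show that the groups were alike.

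**Figure D4:**
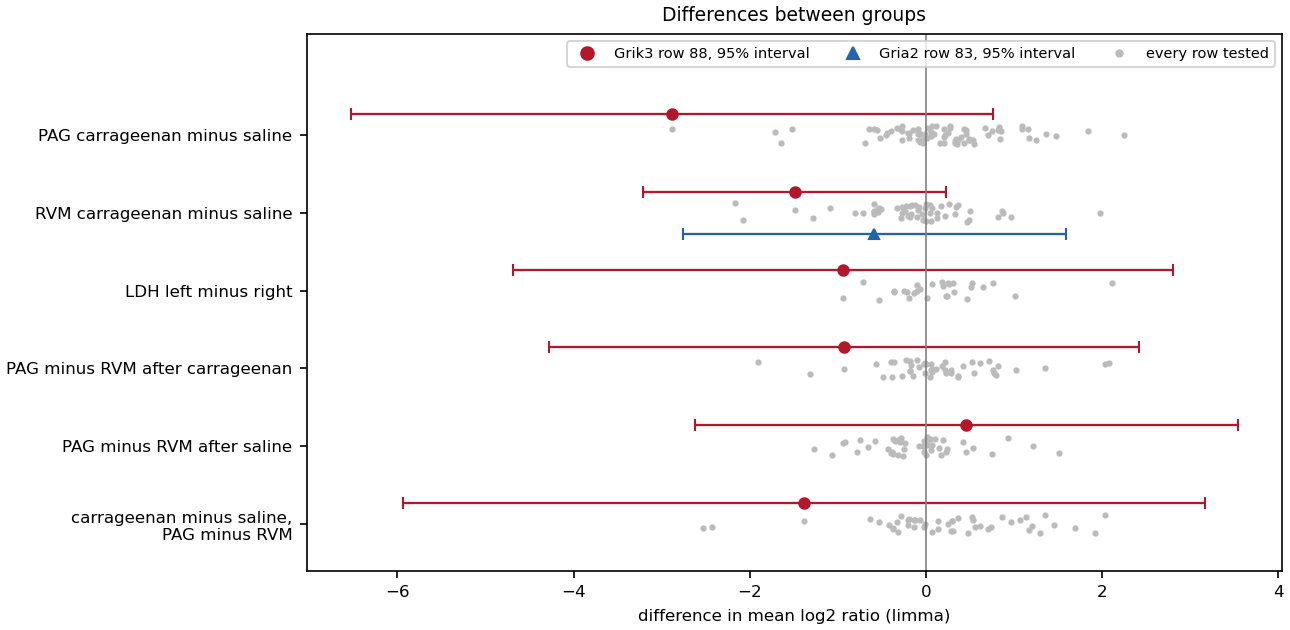
Difference in mean log2 ratio between groups (horizontal axis) in 6 comparisons (vertical axis), with every tested row in grey and the 95% limma intervals of Grik3 row 88 and Gria2 row 83 in colour. All 7 intervals include 0, from the narrowest, for Grik3 in RVM, to that of the interaction.

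The other AMPA and kainate genes had 8 rows for 7 genes. Gria3 and Gria4, the AMPA subunits measured most often, had means between -0.19 and 0.32 in every group with at least 3 measured arrays. In right LDH, with 2 arrays each, they averaged -0.61 and 0.74. In PAG, Gria3 averaged -0.13 ± 0.23 after carrageenan and -0.06 ± 0.13 after saline (SD, n = 5 each). Gria4 was at 0.32 ± 0.72 on 5 carrageenan arrays of that region and at -0.11 ± 0.15 on 4 saline arrays (mean ± SD). Both rows were tested for carrageenan over saline in both brain regions and 0 passed by limma. The differences were -0.07 and 0.43 in PAG and 0.13 for each in RVM.

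Rows of Gria1, Grik1 and Grik5 had low means in some groups. Gria1 averaged -1.09 ± 1.28 in PAG carrageenan and -2.61 ± 0.53 in RVM saline (SD, n = 3 each), and Grik1 row 85 averaged -1.66 ± 1.11 in left LDH (n = 4), against 0.24 ± 0.53 in PAG carrageenan (n = 4). The second Grik1 row, 86, averaged -0.35 ± 0.68 in PAG carrageenan (n = 5) and 0.26 ± 0.89 in RVM saline (n = 3). Grik4 averaged 0.12 ± 0.72 in PAG carrageenan (n = 3), and Grik2 was measured on no more than 2 arrays of any group. Grik5 averaged -2.57 ± 3.01 in RVM saline (n = 3), where array 1 alone gave -6.03. Gria1 thus had means at or below -1 in both groups that measured it on at least 3 arrays, and Grik5 in the single such group.

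**Figure D5:**
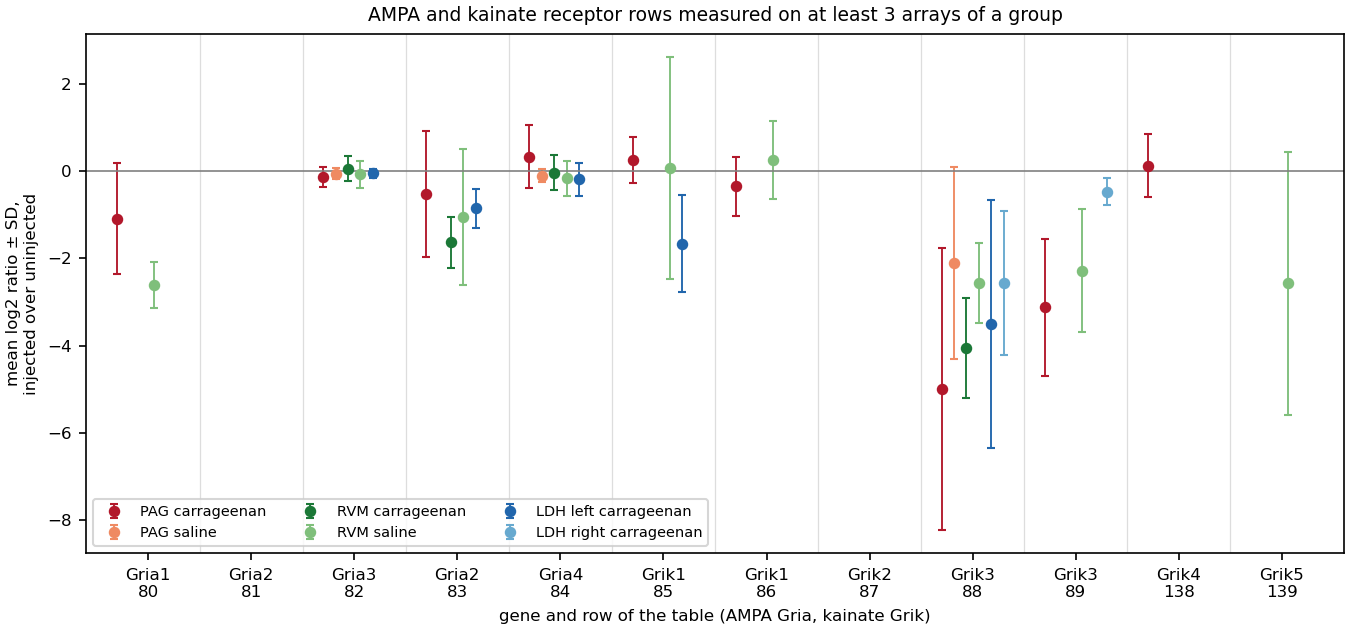
Mean log2 ratio ± SD (vertical axis) of each AMPA (Gria) and kainate (Grik) row of the table (horizontal axis), with 1 coloured point for each group in which at least 3 arrays had a ratio. Grik3 row 88 has 6 points, all between -4.99 and -2.11, whereas all points of Gria3 and Gria4 lie between -0.19 and 0.32. In RVM saline, Gria1 (-2.614) and Grik5 (-2.575) lie below row 88 (-2.566), whose mean there ranked 6 of 127 rows from the lowest.

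The wider list held NMDA and metabotropic glutamate receptors and glutamate transporters, with 21 rows. Of those measured on at least 3 arrays, means were below 0 for 14 of 17 in PAG carrageenan and 6 of 9 in PAG saline, for 2 of 5 in RVM carrageenan and 10 of 14 in RVM saline, and for 8 of 10 in left and 2 of 2 in right LDH. Over all rows measured on at least 3 arrays, means were below 0 for 66 of 155 in PAG carrageenan and 34 of 80 in PAG saline. The counts were 21 of 61 in RVM carrageenan, 59 of 127 in RVM saline, 35 of 92 in left and 18 of 31 in right LDH. The medians of the list means were -0.53, -0.23, 0.02, -0.27, -0.51 and -0.51 in the same order of groups, beside 0.10, 0.02, 0.05, 0.07, 0.08 and -0.08 over all rows. Within the list, the lowest group mean was that of Grin3a row 180, an NMDA receptor subunit, at -4.37 ± 0.75 in RVM saline (SD, n = 4). The highest was that of Grm4 row 150, a metabotropic receptor, at 0.48 ± 0.65 in PAG carrageenan (n = 5). Grm4 row 150 itself averaged -2.90 ± 1.25 in RVM saline (n = 4). In tests of carrageenan over saline, 0 of 9 list rows passed in PAG and 0 of 5 in RVM, and 0 of 2 passed for left over right LDH, all by limma, with 0 at an unadjusted p below 0.05 in each.

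The named rows whose ratios ran most alike with each member were looked up over arrays that measured both, with at least 12 required. This is a description without a test; the points share arrays, and each row brings its own set. For Grik3 row 88, the highest of 92 correlations were with Grin1 row 176, an NMDA receptor subunit (r = 0.64, 13 arrays), Gabbr1 row 76, a GABA-B receptor subunit (r = 0.60, 25 arrays), Grik3 row 89, Gabrg3, a GABA-A receptor subunit (r = 0.56, 12 arrays), and Grik1 row 86 (r = 0.54, 15 arrays). Without the 2 arrays farthest from the median of row 88 these were 0.26, 0.47, -0.26, 0.34 and 0.50, so those of Gabbr1 and Grik1 moved least. For Gria2 row 83, the highest of 78 were with the adenosine receptor Adora2a row 23 (r = 0.70, 14 arrays), Pomc row 191, the beta-endorphin precursor (r = 0.62, 15 arrays), Pdyn, the dynorphin precursor (r = 0.57, 13 arrays), and the somatostatin receptors Sstr3 (r = 0.57, 18 arrays) and Sstr1 row 212 (r = 0.55, 14 arrays). Without the 2 arrays farthest from the median of row 83 these were 0.78, 0.61, 0.36, 0.43 and 0.47. For Grik3 row 89, apart from row 88, they were with Grm4 row 149 (r = 0.54, 13 arrays), Grm6 (r = 0.40, 12 arrays), Gabre, a GABA-A receptor subunit (row 60, r = 0.40, 12 arrays) and Gabbr1 row 76 (r = 0.39, 16 arrays). Without the 2 arrays farthest from the median of row 89 these were 0.41, -0.09, 0.46 and -0.07, so those of Grm6 and Gabbr1 turned sign. The lists of Gria2 and Grik3 had no row in common.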

How the data were processed

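The values were 1 log2 ratio per row and array, as the authors deposited them. Per the labels' protocols, TRIzol total RNA (5 µg per sample) was labelled with a 3DNA kit, with 1 Alexa dye for injected and another for uninjected animals. Scanning, spot filters, background correction and normalization are not given in the sources used here. The number of arrays limits the precision. Rows were named from the platform annotation, updated through a rat RefSeq gene table (GRCr8): of 228 rows 202 were named and 191 matched that table. Coordinates are left out because the array's genome build is unknown here.

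Differences between groups came from limma 3.58.1 in R 4.3.3 (lmFit and eBayes, two-sided), using only the groups compared; region differences and the interaction used the PAG and RVM groups together. Rows needed at least 3 measured arrays per group. P-values were adjusted by Benjamini-Hochberg over all rows of a comparison, with a threshold of 0.05. Exact permutation tests were two-sided. The fitting code was run on simulated data with larger changes and less spread than the member rows had. That run checks the code and says nothing about the power of the tests here. Alternatives changed the handling of 0 values, the filter, the scaling, array weights, the arrays in the fit and the averaging of rows of 1 gene. Same-numbered arrays did not deviate together in every pair, so numbers were not used as pairs.

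The members, lists and alternatives were chosen with earlier results of these data known. All rows of both genes are named, other AMPA and kainate rows by value, other glutamate rows by their extreme means, and the 5 most correlated rows per member.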

Additional observations from a re-analysis of the deposited data

How the results depend on the processing

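Grik3 row 88 stayed below 0 against uninjected controls in all 6 groups under every alternative run, with group means between -5.86 and -1 (the PAG saline median). No Grik3 or Gria2 difference between groups passed by limma under any alternative; over these, adjusted p ran from 0.0673 (row 89, interaction, unmeasured values as 0) to 1, and from 0.158 for row 88. Signs were less stable, and the cause was not tested. With unmeasured values kept as 0, the RVM difference of Grik3 row 88 was 0.1304, the RVM carrageenan means of Gria2 row 83 and Grik3 row 88 were -0.9796 and -2.4356, and 1, 4, 1, 4 and 6 rows were called for carrageenan over saline in PAG and RVM, for PAG over RVM after carrageenan and saline, and for the interaction, against 0 each. With quantile normalization, row 88 differed by 1.1047 (PAG minus RVM, carrageenan), -1.0322 (saline) and 2.1369 (interaction). Gria2 row 83 in RVM differed by 0.0621 with array weights and 0.362 with the replicate number as a block. That block gave -2.88 for row 88 in PAG (adjusted p = 0.48) and called 1 interaction row, as array weights did. With all 6 groups in 1 fit, 1 PAG row was called, and with at least 2 arrays per group, 1 RVM row. With rows of 1 gene averaged, Grik3 was -1.5155 in right LDH, against -0.47 for row 89. Array weights and keeping 0 values moved PAG minus RVM for row 88 after carrageenan to -2.47 and -2.55 and the interaction to -3.30 and -3.01, and the block moved LDH left minus right to -0.33. A fit on rows measured on every array gave no member value outside PAG. Leaving out 1 array at a time gave 0 to 1 called rows in RVM and 0 to 2 for the interaction. For row 88 it gave -1.599 to 0.173 in LDH, -1.7959 to 0.2406 for PAG minus RVM after carrageenan and -0.0408 to 1.301 after saline. For Gria2 row 83 in PAG carrageenan it gave -0.8812 to 0.0425. Same-numbered arrays of paired groups had deviations correlating from -0.78 to 0.33. Precision is limited by 3 to 5 measured arrays per group and by spots with no ratio.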
